A study of Drosophila melanogaster with 19 samples.

Results

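The 34 genes described here encode the neuropeptide receptors of Drosophila melanogaster, and they were taken by FlyBase symbol from a count table of 17558 genes. All 34 have a line in that table, and 34 of 34 passed the filter on low counts that left 12569 genes for testing. Neuropeptides are short secreted proteins that act at a distance, and a neuron answers one only if it makes the matching receptor. Almost all such receptors in flies are G protein-coupled receptors, which raise or lower cyclic AMP or calcium and so change how a neuron responds to its other inputs. In the optic lobe, where the fly brain handles vision, peptides such as pigment-dispersing factor are known to carry time of day, and others to carry feeding state or arousal.

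RNA was sequenced from 17 single neuron types of that region to ask how they differ: Mi1, the Dm types Dm2, Dm8 and Dm12, the Tm types Tm2, Tm3, Tm5ab, Tm5c and Tm9, the T types T1, T2, T3 and T5, and the pairs C2 with C3 and Lawf1 with Lawf2. Each type was labelled by crossing a Gal4 driver line to UAS-Red Stinger, a nuclear red fluorescent protein, and the brains of adults aged 3 to 6 days were dissociated and sorted by fluorescence. Sorted neurons served as the control, and a line labelling T1 and Tm1 cells together, called the mixture here, was added; Tm1 alone was not sorted. The design text speaks of GFP in that last line while the protocol names Red Stinger, and the driver lines are not named in the sources used here, so how cleanly each driver marks its type cannot be given. C cells are known as centrifugal neurons that run from the medulla towards the lamina, Dm and Mi cells as local medulla neurons, and Lawf cells as lamina wide-field neurons. Tm cells and the T types T2, T3 and T5 are known as neurons that carry visual signals to deeper layers.

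Each of the 19 groups has 3 libraries, with 0.602 to 72.677 M (mega) reads in genes and a median of 21.76 M. GEO lists 1 sample for each group, so a p-value here reflects how far libraries of 1 sample differ, a spread that may be technical only. Levels are counts per M reads after TMM scaling (CPM), as mean ± SD with n = 3 libraries, and levels of different genes are compared only per kb of exon. Of 6 neuronal genes, elav (429 to 1759 CPM), nSyb (1279 to 4879), Syt1, Snap25 and Csp were above 100 CPM in all 19 groups. The sixth, brp, which encodes a protein of the presynaptic active zone, stood at 18.0 ± 8.96 in T1 and at 937 to 4032 in the other 18 groups, and the glial gene repo lay between 1.51 and 10.4. The T2 libraries stand apart, with 0.602 to 9.444 M reads and TMM factors of 0.485 to 0.697 against 0.777 or more elsewhere. In T2 the median log2 fold change against the other types was -2.06 in the shortest of 5 sets of genes by exon length and 0.58 in the longest. The receptor genes are long, with 23 in the second longest set and 10 in the longest, so T2 levels carry that limit. In bulk samples such as these, fewer cells of a type and less RNA per cell cannot be told apart.

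The receptor genes differed widely among the types. All 34 varied in the edgeR F test over the 17 types, beside 91.5 percent of all genes tested, so the call by itself says little. The size of the differences says more: the median range over type means was 6.68 in log2(CPM + 1) for the receptor genes and 2.55 for all genes. Of the 578 pairs of a receptor gene and a type, 205 were higher than the mean of the other 16 types and 78 lower at an adjusted p under 0.05 and a fold change of 2 or more. These are 35.5 and 13.5 percent of the pairs, beside 15.6 and 6.24 percent over all genes. The mean of the other 16 types is one of log levels, which types near 0 pull down. A type called higher here or below can thus lie under the arithmetic mean of CPM, as did Tm5ab for AstC-R1. Tm5ab was called higher by 3.62 on the log2 scale at 37.0 CPM, beside an arithmetic mean of 81.2 over the 17 types. Low levels in genes where another type had no read could go uncalled, with very large SEs in the fit. NPFR in Dm12, without a read, had a log2 fold change of -8.31 (SE 26201) and was not called lower. The lower counts of each type given below, and the shares over all genes, carry the same limit. In 59 of the 205 higher pairs the type itself averaged under 10 CPM, and the higher counts of each type given below include such pairs. Of the 34 genes, 27 averaged at least 10 CPM in a type, 19 at least 100 CPM, and 6 stayed under 3 CPM in every type. In 21 genes all libraries of the highest type lay above every library of the other 16. The highest type was picked from these same values and the share over all genes is not given here, so this count only describes the 34 genes.

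**Figure D1:**
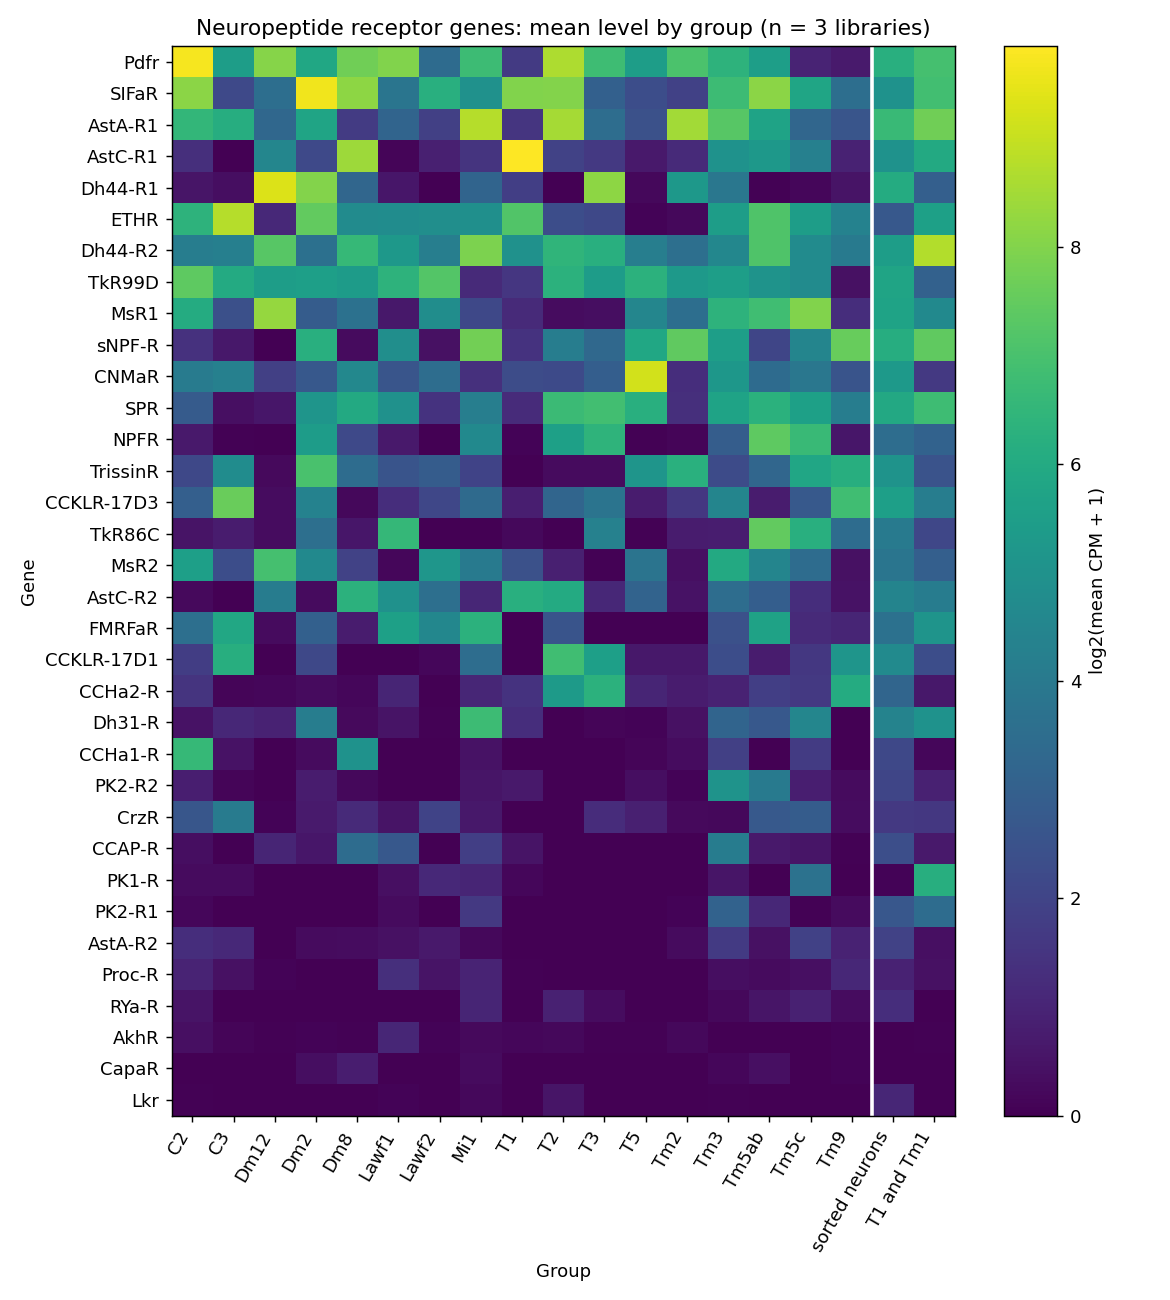
Mean level of each receptor gene (vertical axis) in each of the 19 groups (horizontal axis), as log2(mean CPM + 1) on the colour scale, with sorted neurons and the mixture right of the white line. Most genes are bright in a few columns and dark in the rest, as for CNMaR, at 577 CPM in T5 and at most 36.0 in the other types, whereas Dh44-R2 is at 11.2 CPM or more in all 17.

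AstC-R1 and AstC-R2 are somatostatin-like receptors for allatostatin C, a peptide known for inhibition, and AstC-R1 had the widest range of the 34 genes (9.85 in log2(CPM + 1)). AstC-R1 (FBgn0036790, chromosome 3L, 18560258 to 18576326 in BDGP6) stood at 965, 884 and 912 CPM in the 3 T1 libraries, a mean of 920.4 ± 41.3, and at 348, 326 and 332 in Dm8. Every T1 library lay above every Dm8 library, the T1 mean was 2.74 times that of Dm8, and the third type, Tm5ab, had 37.0. C3 had no read, which allows up to 0.0399 CPM (3 counts over the group; such floors cover counting error only). Against the mean of the other types T1 was higher by 8.55 on the log2 scale (SE 0.32, adjusted p = 7.7e-24) and Dm8 by 7 (SE 0.34, adjusted p = 5.27e-20). Fitted fold changes of this size against a mean that includes types without a read depend on the prior count, which applies to AstC-R1, CCHa1-R, CCKLR-17D1, Dh31-R, Dh44-R1, FMRFaR, NPFR, PK2-R2, sNPF-R and TkR86C of the genes that reached 20 CPM in a type. AstC-R2, its neighbour 57.7 kb away, was highest in the same types, at 79.3 ± 13.6 in Dm8 and 73.2 ± 11.5 in T1, whose libraries overlap. T2 followed with 125, 48.3 and 19.1 CPM in its libraries.

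Allatostatin A acts on galanin-like receptors and is known for curbing feeding. AstA-R1 (FBgn0266429, X, 3574536 to 3666724) stood at 488, 414 and 392 CPM in Mi1 (431 ± 49.9), at 462, 435 and 214 in T2 and at 371, 345 and 363 in Tm2. The libraries of Mi1 and T2 overlap, and those of Tm2 lie below Mi1 and within the range of T2. Mi1 was higher than the other types by 4.44 on the log2 scale (SE 0.18, adjusted p = 3.2e-25). Tm3 had 157 CPM, while T1 had 1.89 and Dm8 2.30. The second receptor, AstA-R2, did not pass 2.78 CPM in any type.

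Secretin-type receptors form a family of their own, and 4 of the genes belong to it: Pdfr, Dh31-R, Dh44-R1 and Dh44-R2. Pdfr (FBgn0260753, X, 2552206 to 2578640), the receptor of the clock peptide pigment-dispersing factor, stood at 845, 813 and 844 CPM in C2 (834 ± 18.3). All C2 libraries lay above the next type, T2, at 397 ± 14.0, and C2 was higher than the other types by 4.37 on the log2 scale (SE 0.22, adjusted p = 6.38e-21). Dm12 (269 ± 21.7), Lawf1 (250.5 ± 15.5) and Dm8 (209 ± 23.4) followed. Pdfr reached 10 CPM in every library in 13 types, and was at 0.643 CPM in Tm9, 0.967 in Tm5c and 2.15 in T1. The peptide gene itself, Pdf, stayed at or below 8.16 CPM in the types.

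Dh44-R1 and Dh44-R2 answer diuretic hormone 44, a peptide related to corticotropin-releasing factor. Dh44-R1 (FBgn0033932) stood at 555, 669.7 and 701 CPM in Dm12 (642 ± 76.8), at 340, 298 and 220 in T3 and at 426, 285 and 66.0 in Dm2. The Dm12 libraries lay above all others, while those of T3 and Dm2 overlap and the third Dm2 library is far below the other two. Dm12 was higher than the other types by 9.14 on the log2 scale (SE 0.39, adjusted p = 6.13e-21), and T2 and Lawf2 had no read. Dh44-R2 was the most widely found of the 34 genes, with 15 types at 10 CPM or more in every library and the other two, Dm2 and Tm2, above 10 on average. It ran from 11.2 CPM in Tm2 to 241 ± 42.6 in Mi1, with 156 ± 2.28 in Dm12 and 139 in Tm5ab. The kits used do not mark strand, and 33.2 percent of the exon bases of Dh44-R2 lie in exons of other genes, 16.8 percent in CG34234 on the opposite strand. CG34234 had 56.0 CPM in Mi1, 36.6 in Dm12, 31.1 in Tm5ab, 21.0 in Dm8 and 16.2 in T3 and at most 4.37 in the other types; its part in the Dh44-R2 values was not tested.

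Dh31-R, whose peptide is related to calcitonin, was highest in Mi1 at 108 ± 3.68 CPM, 4.90 times the next type, Tm5c, at 22.1. Dm2 had 17.2 and the remaining types 7.95 or less. Mi1 was higher than the other types by 7.74 on the log2 scale (SE 0.46, adjusted p = 2.21e-17).

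**Figure D2:**
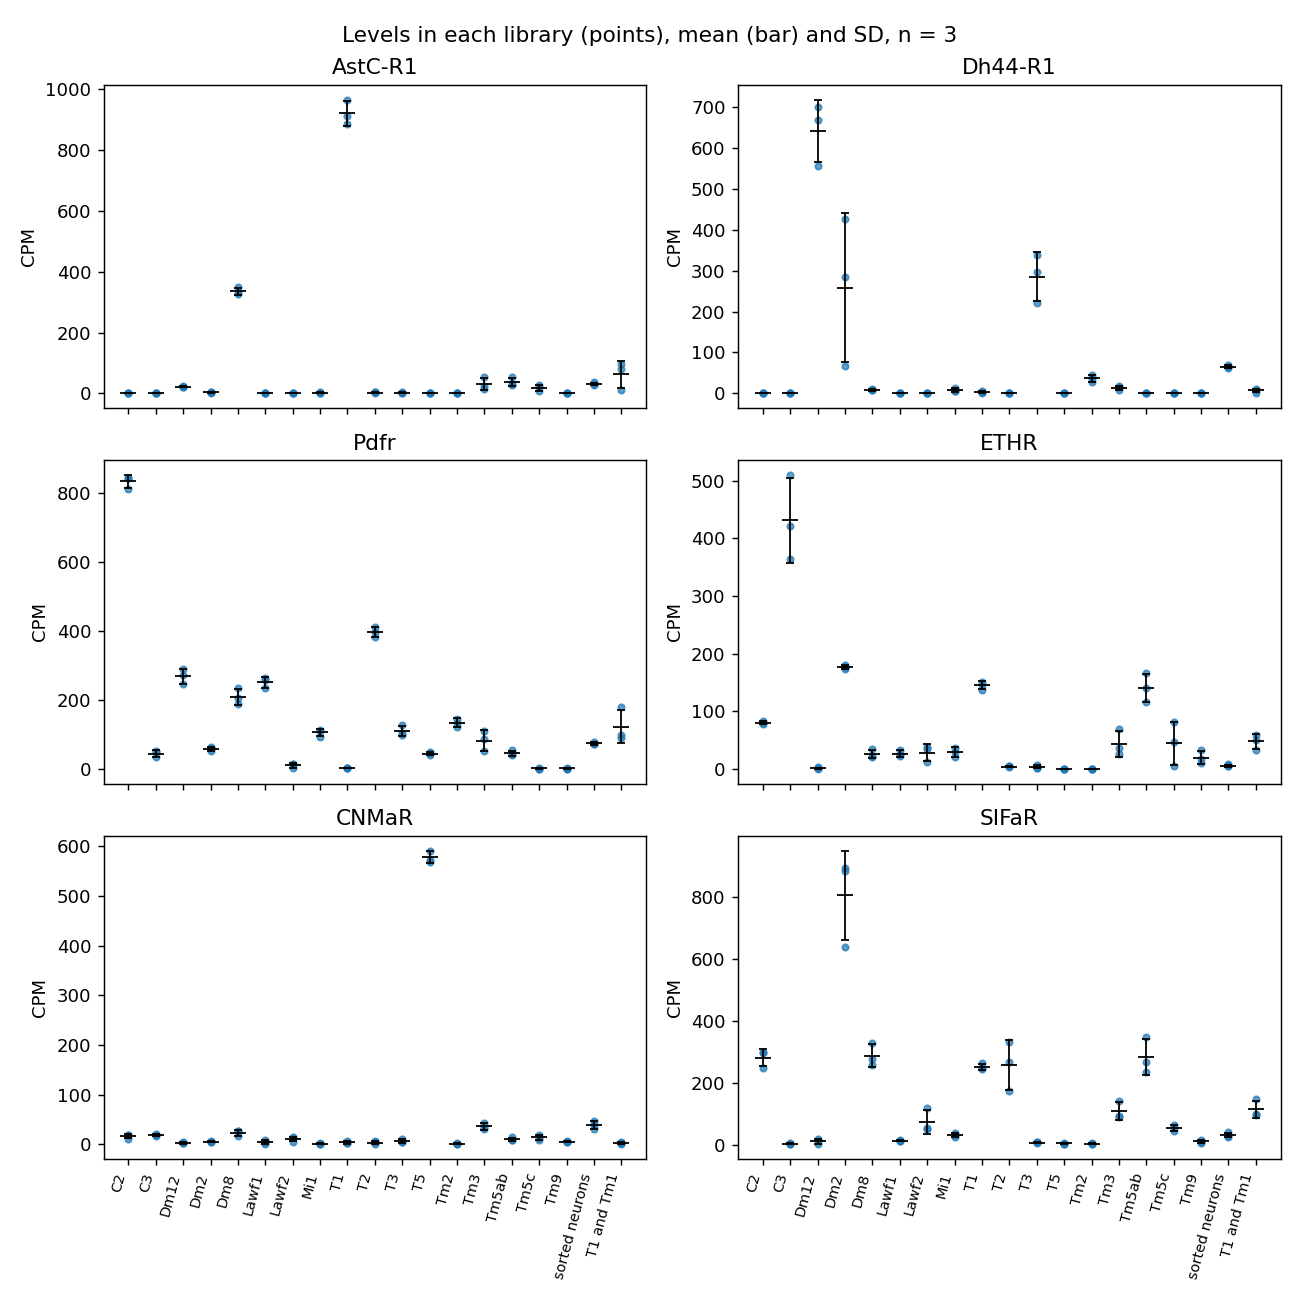
Levels in CPM (vertical axes) of 6 receptor genes in each group (horizontal axes), with 1 point per library and the mean and SD as bars (n = 3). AstC-R1 stands out in T1 (920.4 CPM) and Dm8 (335), Dh44-R1 in Dm12, T3 and Dm2, Pdfr in C2 (834), ETHR in C3 (432), CNMaR in T5 (577) and SIFaR in Dm2 (804).

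The receptors of neuropeptide F and short neuropeptide F, peptides known from feeding and sleep, had different distributions. sNPF-R (FBgn0036934, 3L, 20058511 to 20089007) stood at 250, 185 and 209 CPM in Mi1 (214.5 ± 32.8), at 188 ± 41.1 in Tm9 and at 173 ± 39.5 in Tm2, and the libraries of these 3 types overlap. Mi1 was higher than the other types by 5.26 (SE 0.23, adjusted p = 3.49e-23), and Dm12 had no read. NPFR (FBgn0037408, 3R, 6187315 to 6195403) stood at 184, 165 and 154 CPM in Tm5ab (168 ± 15.2) and at 132, 40.7 and 133 in Tm5c. All Tm5ab libraries lay above all others, and the second Tm5c library was well below the other two. Tm5ab was higher by 7.43 (SE 0.31, adjusted p = 7.28e-22), with T3 at 84.2 ± 9.38, T2 at 47.7 ± 24.6, Dm2 at 41.9 ± 7.63 and no read in Dm12 and Lawf2.

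SIFamide is made by a handful of brain cells and is known to govern arousal, courtship and appetite. Its receptor gene SIFaR (FBgn0038880, 3R, 21276664 to 21293998) stood at 637, 884 and 891 CPM in Dm2 (804 ± 144). Each Dm2 library lay above all other libraries, and Dm2 was higher by 4.48 on the log2 scale (SE 0.19, adjusted p = 3.89e-24). A group of 5 types followed at close levels, with Dm8 at 286 ± 36.9, Tm5ab at 283 ± 58.8, C2 at 281 ± 28.1, T2 at 257 ± 79.8 and T1 at 252. Tm2 (2.79), C3 (3.52), T5 (4.06) and T3 (7.04) were at the other end. Close by on the same chromosome arm lies ETHR (FBgn0038874, 3R, 21247011 to 21265134), the receptor of the ecdysis-triggering hormone that starts moulting behaviour. It stood at 422, 363 and 510 CPM in C3 (432 ± 73.7), above every library of Dm2 (177 ± 3.65), T1 (145 ± 6.95) and Tm5ab (141 ± 24.7). C3 was higher by 5.03 (SE 0.26, adjusted p = 3.98e-20), and T5 had 0.0585 CPM and Tm2 0.146.

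Tachykinins, the fly relatives of substance P, act on TkR99D, and TkR86C is known as the receptor of the related peptide natalisin and of a tachykinin. TkR86C (FBgn0004841, 3R, 10737592 to 10751228) was found in few types, at 160, 154 and 220 CPM in Tm5ab (178 ± 36.4), 93.8 ± 17.2 in Lawf1, 72.9 ± 7.64 in Tm5c and 18.9 in T3. The Tm5ab libraries lay above all others, and Tm5ab was higher by 7.90 (SE 0.40, adjusted p = 2.42e-19). TkR99D (FBgn0004622, 3R, 29950796 to 29969447) was found in 14 types. It stood at 178, 168 and 154 CPM in C2 (167 ± 11.7) and at 147 ± 31.1 in Lawf2, whose libraries overlap those of C2. C2 was higher by 2.75 (SE 0.20, adjusted p = 3.87e-16). The 3 types below 10 CPM were T1 (1.93), Mi1 (1.28) and Tm9 (0.349).

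Myosuppressin is known as an inhibitor of muscle contraction in insects, and its receptors MsR1 and MsR2 lie 21.7 kb apart on 3L. MsR1 (FBgn0035331, 2322693 to 2345799) stood at 286, 338 and 324 CPM in Dm12 (316 ± 26.7) and at 310, 258 and 183 in Tm5c, and the groups overlap in 1 library. Dm12 was higher by 5.46 (SE 0.25, adjusted p = 3.98e-22), followed below Tm5c by Tm5ab at 113. MsR2 (FBgn0264002, 2282883 to 2300944) stood at 131, 118 and 122 CPM in Dm12 (124 ± 6.94), above every library of Tm3 (61.6), and Dm12 was higher by 4.94 (SE 0.31, adjusted p = 1.32e-17).

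The receptors of drosulfakinin, the satiety peptide related to cholecystokinin, lie 37.9 kb apart on the X chromosome. CCKLR-17D3 (FBgn0030954, 18764483 to 18774027) stood at 174, 208 and 197 CPM in C3 (193 ± 17.5), above all libraries of Tm9 (114 ± 26.1), with Tm3 next at 21.3. C3 was higher by 5.84 (SE 0.24, adjusted p = 6.34e-25). CCKLR-17D1 was highest in T2 (113 ± 22.9), then C3 (70.6 ± 13.1), T3 (46.0) and Tm9 (34.5), and had no read in Dm12, Lawf1 and T1.

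CNMaR (FBgn0053696, 3L, 9644109 to 9659433), the receptor of CNMamide, came closest to marking a single type. The T5 libraries had 591, 573 and 568 CPM (577 ± 12.1), 16.02 times the next type, Tm3, at 36.0 ± 6.75. No library outside T5 passed 43.4 CPM among the types, and T5 was higher by 6.39 on the log2 scale (SE 0.20, adjusted p = 4.27e-29). TrissinR (FBgn0085410, 2L, 5824004 to 5856767), the receptor of the cysteine-rich peptide trissin, stood at 110.5, 134 and 145 CPM in Dm2 (129.7 ± 17.6). The Dm2 libraries lay above those of Tm2 (75.8 ± 14.1), Tm9 (70.8 ± 19.99) and Tm5c (55.2 ± 43.1), and Dm2 was higher by 4.95 (SE 0.28, adjusted p = 3.09e-19).

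SPR, the receptor of sex peptide and of myoinhibitory peptides, was highest in T3 at 105.5, 119.9 and 119.7 CPM and was found in 11 types, down to 0.309 in C3. Of its exon bases, 26.8 percent lie in exons of frma on the opposite strand, which had 57.4 CPM in T2, 22.9 in T3, 21.9 in Tm5ab and 18.4 in Tm5c; its part in the SPR values was not tested. FMRFaR, the FMRFamide receptor, was highest in Mi1 (79.0 ± 7.76), followed by C3 (58.7), Tm5ab (50 ± 5.01) and Lawf1 (48.0), and no read was found in T5 and Tm2. The CCHamide receptors are related to bombesin receptors. CCHa1-R was found in C2 (95.2 ± 8.30) and Dm8 (31.3 ± 9.86) and did not pass 2.63 elsewhere. CCHa2-R, known for its role in insulin release, was highest in T3 (78.4 ± 12.2) and Tm9 (65.0 ± 9.84), with 45.7, 3.60 and 71.5 in the T2 libraries, and did not pass 2.56 elsewhere.

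Another 11 receptor genes reached 32.2 CPM or less. CCAP-R, the receptor of crustacean cardioactive peptide, reached 16.46 ± 3.92 CPM in Tm3 and 10.2 in Dm8, and CrzR, the corazonin receptor, 16.3 ± 0.856 in C3 and at most 6.28 in the other types. PK2-R2, a receptor of the hugin pyrokinin, reached 32.2 ± 5.28 in Tm3 and 15.7 ± 2.77 in Tm5ab, while PK2-R1, 4.2 kb away, peaked in Tm3 as well at 7.47 ± 3.09. PK1-R, the receptor of the capa pyrokinin, had 13.5, 1.42 and 21.2 CPM in the Tm5c libraries and at most 1.21 in the other types. Peaks were under 3 CPM for AstA-R2 (2.78 in Tm5c), Proc-R, the proctolin receptor (1.52 in Lawf1), AkhR, the receptor of adipokinetic hormone known from fat body (1.11 in Lawf1), and RYa-R, the RYamide receptor (1.03 in Mi1). CapaR, known from the renal tubules, did not pass 0.725 CPM (Dm8), and Lkr, the leucokinin receptor, had its highest type mean in T2 at 0.480, from 2 reads in 1 library. The fat body markers stood at 3.19 CPM or less in every group.

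**Figure D3:**
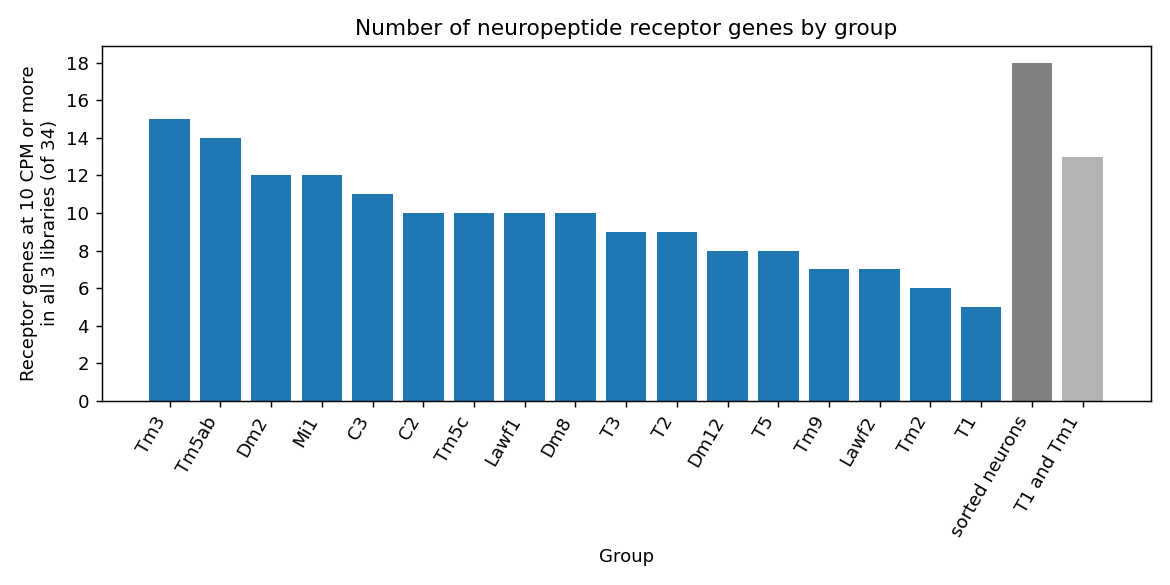
Number of the 34 receptor genes (vertical axis) at 10 CPM or more in all 3 libraries of each group (horizontal axis), with single types in blue, sorted neurons in dark grey and the mixture in light grey. The count runs from 5 in T1 to 15 in Tm3, and sorted neurons have 18.

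The number of receptor genes found in a type, counted at 10 CPM or more in every library, ran from 5 to 15. Tm3 had 15, Tm5ab 14, Dm2 and Mi1 12, C3 11, and C2, Dm8, Lawf1 and Tm5c 10. T2 and T3 had 9, Dm12 and T5 8, Lawf2 and Tm9 7, Tm2 6 and T1 5. Sorted neurons, a mix of many types, had 18 and the mixture 13. The summed level of the 34 genes did not follow the number: it was lowest in Lawf2 (403.5 ± 33.1 CPM) and highest in Dm2 (1787 ± 137), and T1, with the fewest genes, had 1448 ± 36.2. These sums are not scaled by exon length and lean on single genes, with AstC-R1 at 920.4 CPM in T1 and SIFaR at 804 in Dm2. Seen by gene, 14 of the 34 were found in 2 types or fewer, 8 of these in none, and 3 in 12 types or more (Dh44-R2 in 15, TkR99D in 14 and Pdfr in 13).

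Among the local medulla neurons, each type led with another receptor per kb of exon. Dm2 had SIFaR first (160 CPM per kb), then Dh44-R1 (105) and ETHR (39.2), and was higher than the other types for 15 receptor genes (11.5 percent of all genes) and lower for 2 (2.94 percent), AstC-R2 and Dh44-R2. Dm8 had AstC-R1 first (115.2 CPM per kb), then SIFaR (56.9) and Pdfr (44.8), and was higher for 13 (11.9 percent of all genes) and lower for 3 (3.42 percent). Dm12 had Dh44-R1 first (259 CPM per kb), then MsR1 (89.2) and Pdfr (57.6). It was higher for 8 receptor genes (10.7 percent of all genes) and lower for 9 (5.22 percent), among them sNPF-R, SPR, TrissinR and ETHR. Mi1 had AstA-R1 first (116.5 CPM per kb), then Dh44-R2 (73.6) and sNPF-R (45.2), and was higher for 18 (10.6 percent of all genes) and lower for 3 (3.81 percent), CNMaR, MsR1 and TkR99D. The 18 include genes at low levels in Mi1, among them Lkr (0.144 CPM), Proc-R (0.986), RYa-R (1.03), PK1-R (1.04) and PK2-R1 (2.14). TkR86C, at a log2 fold change of -5.58 in Mi1, was not called lower, by the limit of the fit given above.

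Of the T neurons, T1 was higher than the other types for 4 receptor genes (13.8 percent of all genes), AstC-R1, AstC-R2, SIFaR and ETHR, and lower for 8 (10.5 percent), AstA-R1, CCKLR-17D3, CNMaR, MsR1, Pdfr, SPR, TkR99D and TrissinR. The 4 higher in T1 are near the share over all genes. By the limit of the fit given above, CCKLR-17D1 and CrzR, without a read in T1, and FMRFaR (log2 fold change -6.53) were not called lower. AstC-R1 stood at 316 CPM per kb in T1, the highest such level of any receptor gene in any group, followed there by SIFaR at 50.04. Of 9 glial markers, 5 reached 10 CPM in T1, with a summed level of 32310 ± 4510 against 81.1 to 1050 in the other types, nearly all of it the glutamate transporter gene Eaat1. T1 also had the highest group mean of the glial genes Gs2 (111 CPM, against 71.2 or less in the others) and alrm (13.6, against 12.9 or less). Other glial genes were higher elsewhere. Tret1-1 stood at 49.5 in T1 against 1010 in Lawf1, moody at 4.74 against 18.8 in C2 and Gat at 15.5 against 33.7 in T5. For repo the levels were 3.75 in T1 and 10.4 in T2, and wrapper was at 0 in T1. The neuronal gene brp was low in T1, as given above. The part of glial RNA in the T1 values of the receptor genes was not tested. T5 was led by CNMaR (213.5 CPM per kb), then TkR99D (27.4), and was higher for 8 (16.1 percent of all genes) and lower for 5 (7.82 percent). T3 was led by Dh44-R1 (115.4 CPM per kb), then SPR (30.8), and was higher for 10 (10.4 percent of all genes) and lower for 6 (3.80 percent). T2 was led by AstA-R1 (100.0 CPM per kb) and Pdfr (85.1). T2 was higher for 13 receptor genes (21.6 percent of all genes), 10 of them at 10 CPM or more, and lower for 5 (29.3 percent), beside a median T2 log2 fold change of -1.26 over all genes.

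Of the Tm neurons, Tm3 was higher than the other types for 23 receptor genes (11.3 percent of all genes) and lower for 0 (2.16 percent) in edgeR, at moderate levels led by AstA-R1 at 42.3 CPM per kb. At an unadjusted p under 0.05, 1 receptor gene was lower in Tm3, and DESeq2 called 0. Tm5ab was higher for 17 (14.8 percent of all genes) and lower for 1 (1.89 percent), CCKLR-17D3, and SIFaR (56.4 CPM per kb), TkR86C (55.1) and NPFR (52.2) stood at close levels there. Tm5c was led by MsR1 (70.7 CPM per kb) and was higher for 15 (21.3 percent of all genes) and lower for 2 (3.55 percent), AstA-R1 and Pdfr. Tm2, led by AstA-R1 at 97.1 CPM per kb, was higher for 5 (8.95 percent of all genes) and lower for 7 (4.97 percent). Tm9, led by CCKLR-17D3 at 51.0 CPM per kb, was higher for 10 (10.1 percent of all genes) and lower for 8 (2.93 percent), which include Pdfr, TkR99D and SIFaR.

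The centrifugal and wide-field neurons had Pdfr or a tachykinin receptor among the first 3 per kb of exon, in C3 only as the third (TkR99D, 22.3 CPM per kb). The same was seen in Dm8, Dm12, T2, T5, Tm2, Tm5ab and Tm5c. C2 was led by Pdfr (179 CPM per kb) and TkR99D (57.9), and was higher for 15 (23.9 percent of all genes) and lower for 3 (6.21 percent). C3 was led by ETHR (95.7 CPM per kb) and CCKLR-17D3 (86.6), and was higher for 10 (18.4 percent of all genes) and lower for 6 (4.81 percent). Lawf1 was led by Pdfr (53.7 CPM per kb), TkR86C (29.1) and TkR99D (28.3), and was higher for 13 (29.6 percent of all genes) and lower for 5 (7.96 percent). The 13 of Lawf1 include genes at low levels there, among them Lkr (0.0699 CPM), PK2-R1 (0.233), AkhR (1.11) and Proc-R (1.52). Lawf2 was led by TkR99D (50.9 CPM per kb), and was higher for 8 (20.4 percent of all genes) and lower for 5 (4.73 percent). The 8 higher in Lawf2 are near the share over all genes.

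Types that share a name stem differed in their receptors, though not every count departs from the share over all genes. In C3 against C2, 5 receptor genes were higher in C3 (3.76 percent of all genes) and 10 lower (4.08 percent). Both drosulfakinin receptor genes were higher in C3, CCKLR-17D3 at 193 against 6.91 CPM (log2 fold change 4.80, SE 0.60, adjusted p = 2.03e-08) and CCKLR-17D1 at 70.6 against 2.47 (4.84), along with TrissinR (2.95), ETHR (2.42) and FMRFaR (2.40). SIFaR was lower in C3, at 3.52 against 281 CPM (-6.31, SE 0.50, adjusted p = 9.51e-14), and so was Pdfr, at 43.8 against 834 (-4.25, SE 0.52, adjusted p = 1.74e-08). The others lower in C3 were CCHa1-R (-7.90), CCHa2-R (-4.35), SPR (-4.28), NPFR (-4.24), MsR1 (-3.93), MsR2 (-3.51), TkR99D (-1.38) and AstC-R1, at least 37.4-fold below the 1.49 CPM of C2. CCHa2-R and NPFR stood below 2 CPM in both types, and their calls rested on single libraries. CCHa2-R lost its call without C2 library 3 or C3 library 2 or 3 (adjusted p from 0.0693 to 0.109), and NPFR without C2 library 2 or any C3 library (from 0.0847 to 0.207). FMRFaR missed the threshold without C2 library 1 or 3 (adjusted p = 0.0606 and 0.0661) and TkR99D without C3 library 1 (0.057).

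In Lawf1 against Lawf2, 10 receptor genes were higher in Lawf1 (15.8 percent of all genes) and 3 lower (9.87 percent). The 3 lower are near the share over all genes. Pdfr stood at 250.5 against 9.95 CPM (log2 fold change 4.65, SE 0.53, adjusted p = 1.95e-09), TkR86C at 93.8 against 0.0132, and sNPF-R at 28.2 against 0.360 (6.24, SE 0.61, adjusted p = 4.47e-11). SPR was higher as well, at 30.2 against 1.69 (4.15), and so were AstA-R1 (1.60), CCHa2-R (5.68) and Dh44-R2 (1.05). CCAP-R had 5.56 ± 0.611 CPM in Lawf1 and no read in Lawf2, at least 134-fold lower. NPFR and PK2-R1, also without a read in Lawf2, were called at 0.5996 and 0.233 CPM. The myosuppressin receptors went the other way, with MsR2 at 0.113 against 35.3 CPM (-8.21, SE 0.99, adjusted p = 7.1e-09) and MsR1 at 0.563 against 27.3 (-5.58), and SIFaR was lower at 13.2 against 73.4 (-2.47). Calls were lost for PK2-R1 without any 1 library of Lawf2 (adjusted p from 0.0881 to 0.0895) or without Lawf1 library 2, for NPFR without Lawf1 library 1 (adjusted p = 0.518), for CCHa2-R without Lawf1 library 3 (0.0901) and for AstA-R1 without Lawf2 library 3 (0.0611). Dh44-R2 fell under the fold threshold without Lawf2 library 2 or 3 or any Lawf1 library (0.76 to 0.91).

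In Tm5ab against Tm5c, 6 receptor genes were higher in Tm5ab (4.5 percent of all genes) and 5 lower (5.47 percent). Pdfr stood at 45.1 against 0.967 CPM (log2 fold change 5.37, SE 0.59, adjusted p = 2.13e-09) and FMRFaR at 50 against 1.24 (5.19, SE 0.79, adjusted p = 4.26e-06). AstA-R1 (2.57), Dh44-R2 (2.42), SIFaR (2.39) and ETHR (1.67) were higher too. TrissinR at 8.62 against 55.2 CPM (-2.68), sNPF-R at 3.18 against 21.1 (-2.73), CCKLR-17D3 (-3.08), CCHa1-R (-6.96) and PK1-R at 0.0135 against 12.03 (-9.34) were lower. ETHR missed the threshold without Tm5ab library 1 or 3 or Tm5c library 1 or 2 (adjusted p from 0.0592 to 0.113).

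In T2 against T3, 7 receptor genes were higher in T2 (17.8 percent of all genes) and 2 lower (29.9 percent), with the limits of the T2 libraries given above. The 7 higher are near the share over all genes, and the 2 lower are below it. AstA-R1 stood at 370.4 against 10.4 CPM (log2 fold change 5.17, SE 0.45, adjusted p = 8.82e-14), SIFaR at 257 against 7.04 (5.18, SE 0.48, adjusted p = 6.76e-13) and AstC-R2 at 64.2 against 1.12 (5.93, SE 0.90, adjusted p = 2.72e-07). Pdfr was higher by 1.86, and FMRFaR (4.84 CPM), MsR2 (0.845) and Lkr (0.480) were called at low T2 levels. Dh44-R1 had 286 ± 60.6 CPM in T3 and no read in T2, at least 608-fold lower, and TkR86C 18.9 in T3 and no read in T2, at least 40.3-fold lower. MsR2 lost its call without T2 library 1 or 2 or T3 library 2 or 3 (adjusted p from 0.0813 to 0.271), and Lkr without T2 library 2 or any T3 library (from 0.082 to 1).

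Related receptors overlapped over the types to different degrees, here as counts of types at 10 CPM or more in every library. TkR86C was found in 4 types, in all 4 together with TkR99D, which was found without it in 10 more. Dh44-R1 was found with Dh44-R2 in 2 types, Dm12 and T3, and without it in 2, Dm2 and Tm2. The myosuppressin receptors shared 5 types, C2, Dm12, Lawf2, Tm3 and Tm5ab, with 2 types for each alone. AstC-R1 and AstC-R2 shared 3, Dm12, Dm8 and T1, and the drosulfakinin receptors shared 2, C3 and Tm9. CCHa1-R and CCHa2-R shared 0 types, with 2 for each. AstA-R2 and PK2-R1 were found in 0 types, beside 8 for AstA-R1 and 2 for PK2-R2. The overlap of other pairs of genes is not given here, so these counts only describe the pairs.

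Across the 17 type means, Pearson's r of log2(CPM + 1) was 0.79 for CCKLR-17D1 with CCKLR-17D3, 0.78 for MsR1 with MsR2 and 0.58 for AstC-R1 with AstC-R2. It was 0.82 for PK2-R1 with PK2-R2, which are low in most types, 0.09 for AstA-R1 with AstA-R2, 0.18 for the Dh44 receptors, -0.03 for the tachykinin receptors and -0.21 for the CCHamide receptors. Among the 276 pairs of the 24 receptor genes that reached 20 CPM in a type the median r was 0.04. After the drosulfakinin and myosuppressin pairs the most alike were NPFR with SPR (0.70) and CCHa2-R with CCKLR-17D1 (0.67), and the least alike were Dh44-R2 with TrissinR and AstC-R2 with CCKLR-17D3 (both -0.62). These r are descriptions over types whose genes share libraries and depth.

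Few of the examined pairs of a peptide gene and its receptor gene had both at 10 CPM or more in every library of a type. For short neuropeptide F this held in Dm2, Mi1, Tm3 and Tm9, 4 of the 8 types with the sNPF gene, while the type with most sNPF, Tm5ab at 2004 ± 462 CPM, had sNPF-R at 3.18. For tachykinin and TkR99D it held in Dm8, T2, T3, Tm2 and Tm3, 5 of the 7 types with Tk. TkR99D was found in 14 of the 17 types and sNPF-R in 8, so such meetings are described only. Mi1, with most Tk at 3924 ± 797.5 CPM, had TkR99D at 1.28 and TkR86C at 0.0217. SIFa, at most 15.3 ± 1.63 in the types, met SIFaR in C2 and Dm2. T1 had the corazonin gene Crz at 513 ± 54.3 CPM and no read of CrzR, Dm2 had Dh31 at 582 ± 80.2 beside Dh31-R at 17.2 ± 8.20, below 10 in at least 1 library, and Lawf1 had Proc at 776 ± 42.6 beside Proc-R at 1.52. Tk and TkR86C met in T3, and in the other pairs examined no type had both. Of the peptide genes in those other pairs, only Crz, Dh31, Ms and Proc reached that level in any type. The remaining pairs could therefore not meet.

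The control comparison asks how single types stand beside sorted neurons as a whole. In edgeR, the mean of the log levels of the 17 types was lower than sorted neurons for 25 of the 34 receptor genes (12.5 percent of all genes) and higher for 1 (2.67 percent), ETHR. The median log2 difference was -2.91 for the receptor genes and -0.15 for all genes. A mean of log levels is pulled down by types near 0. With arithmetic means of CPM the types were lower for 15 receptor genes and higher for 19, and 10 of the 25 called lower, AstC-R1, CCHa1-R, CCHa2-R, CNMaR, Dh44-R1, FMRFaR, MsR1, MsR2, NPFR and TkR86C, had the higher arithmetic mean in the types. For 28 of the genes at least 1 type had all libraries above all those of sorted neurons. Each gene had 17 types in which to meet this, and the share over all genes is not given here, so this count is a description only.

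Dh44-R1 shows this pattern, at 65.3 ± 4.39 CPM in sorted neurons and 74.0 on average over the types, with 2 types wholly above sorted neurons and 14 wholly below (log2 difference -5.31, SE 0.46, adjusted p = 1.32e-11). AstA-R1 stood at 100.4 ± 13.2 in sorted neurons, with 4 types above and 12 below (-2.08, SE 0.22, adjusted p = 1.83e-10), and sNPF-R at 69.3 ± 1.70, with 3 above and 13 below (-3.32, SE 0.26, adjusted p = 5.25e-14). The others called lower with a lower arithmetic mean were AstA-R2, AstC-R2, CCAP-R, CCKLR-17D1, CCKLR-17D3, Dh31-R, Lkr, PK2-R1, PK2-R2, Proc-R, RYa-R, SPR and TrissinR. Proc-R lost its call without sorted-neuron library 3 (adjusted p = 0.153). CrzR just missed the threshold (-1.95, SE 0.75, adjusted p = 0.0533) and was called lower in 51 of 54 refits without 1 library, and TkR99D was called lower in 3 of them. PK2-R1 (5.38 ± 1.35 in sorted neurons) and Lkr (1.11 ± 0.892) had no type wholly above sorted neurons and 16 wholly below.

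ETHR had 5.47 ± 2.07 CPM in sorted neurons and 70.6 on average over the types, and 11 types lay wholly above sorted neurons (1.56, SE 0.47, adjusted p = 0.0117). That call was lost without sorted-neuron library 1 (adjusted p = 0.0911), without sorted-neuron library 2 (0.0879) or without T5 library 3 (0.0628). SIFaR had 31.2 ± 7.62 in sorted neurons and 146 over the types, with 9 types above, and did not pass the test (0.48, SE 0.30, adjusted p = 0.298). Pdfr had 73.5 ± 4.48 in sorted neurons, with 8 types above and 8 below (-0.60, SE 0.31, adjusted p = 0.175), and Dh44-R2 had 43.3 ± 7.62, with 4 above and 10 below (-0.24, SE 0.21, adjusted p = 0.496).

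**Figure D4:**
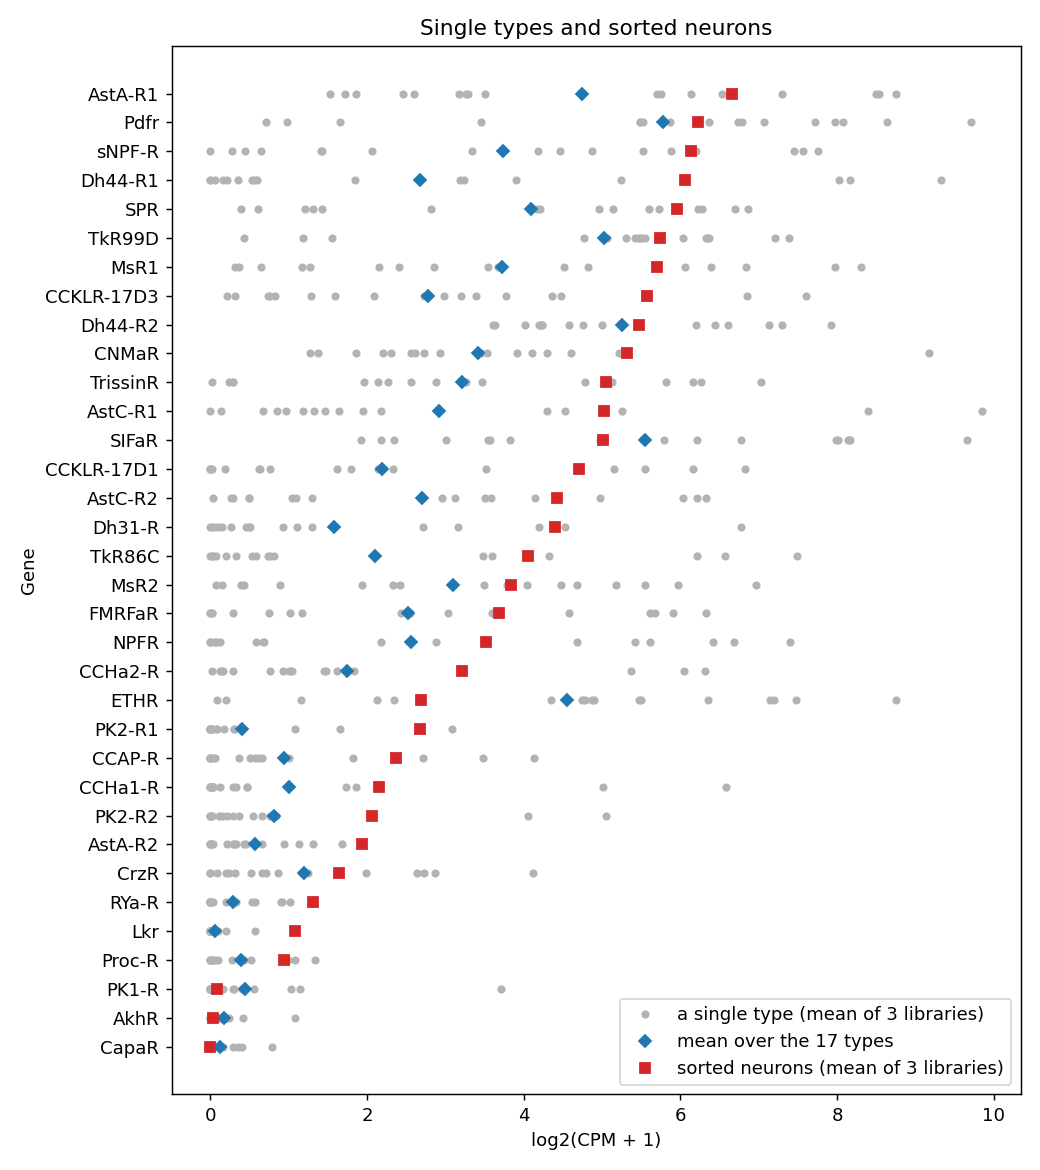
Level of each receptor gene as log2(CPM + 1), with the 17 type means as points, their mean on this log scale as a blue diamond and sorted neurons as the other marker. For most genes the diamond lies below sorted neurons while single types lie above, as for AstC-R1 (31.5 CPM in sorted neurons, 920.4 in T1).

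The mixture of T1 and Tm1 cells is set beside T1 to ask what the second type adds. Of the genes high in T1, Awh, a LIM homeodomain factor, stood at 135, 140 and 28.1 CPM in the mixture libraries against 1032 ± 134 in T1, and Eaat1 at 4602, 3923 and 753 against 28550 to 37230. The Mi1 marker bsh, at 649 ± 68.3 CPM in Mi1 and at most 3.13 in the other 16 types, stood at 151, 134 and 82.7 in the mixture. No such marker was used for the remaining labels. Awh and Eaat1 were lowest in the third mixture library, and the part of bsh-carrying cells in what follows was not tested. In edgeR 17 receptor genes were higher in the mixture than in T1 (13.2 percent of all genes) and 4 lower (5.53 percent).

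PK1-R, near 0 in most single types, stood at 79.6, 63.8 and 72.2 CPM in the mixture (71.9 ± 7.90), at 0.114 ± 0.197 in T1, at 0.0642 in sorted neurons and at most at 12.03 in a single type (log2 fold change against T1 9.29, SE 1.75, adjusted p = 0.000153). Every mixture library lay above every library of the 17 types, and Mi1, whose marker the mixture carries, had 1.04. PK2-R1, which reached 7.47 CPM in Tm3, had 10.2 ± 1.90 in the mixture and no read in T1, at least 225-fold lower.

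Other receptors higher in the mixture are ones that Mi1 or other types carry too. Dh44-R2 stood at 569, 383 and 313 CPM (3.77, SE 0.33, adjusted p = 3.19e-13), and its overlapping neighbour CG34234 at 96.2. AstA-R1 stood at 236, 212 and 178 against 1.89 ± 1.16 in T1 (6.77, SE 0.49, adjusted p = 1.22e-15), and sNPF-R at 203, 183 and 130.5 against 1.69 (6.66, SE 0.57, adjusted p = 7.09e-13). Pdfr at 122 against 2.15 CPM (5.83), SPR at 111 against 1.30 (6.40) and FMRFaR at 33.5 against 0.0148 (10.65) were higher, as were Dh31-R (31.9 CPM), MsR1 (24.6), CCKLR-17D3 (17.1), NPFR (7.52), TkR99D (7.25), TrissinR (4.78), CCKLR-17D1 (3.98), TkR86C (3.29) and CrzR (1.99).

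The 4 genes lower in the mixture were AstC-R1, AstC-R2, ETHR and SIFaR. AstC-R1 stood at 79.1, 96.9 and 10.8 CPM against 920.4 in T1 (-3.87, SE 0.76, adjusted p = 0.000125), and the third library is also the one lowest in Awh and Eaat1. AstC-R2 (-2.14), ETHR (-1.60) and SIFaR (-1.13) were lower with adjusted p of 0.0275, 0.0236 and 0.031. Without mixture library 2 or without library 3, only AstC-R1 kept its call. AstC-R2 also lost its call without T1 library 3 (0.0601) and SIFaR without T1 library 1 (0.0555).

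**Figure D5:**
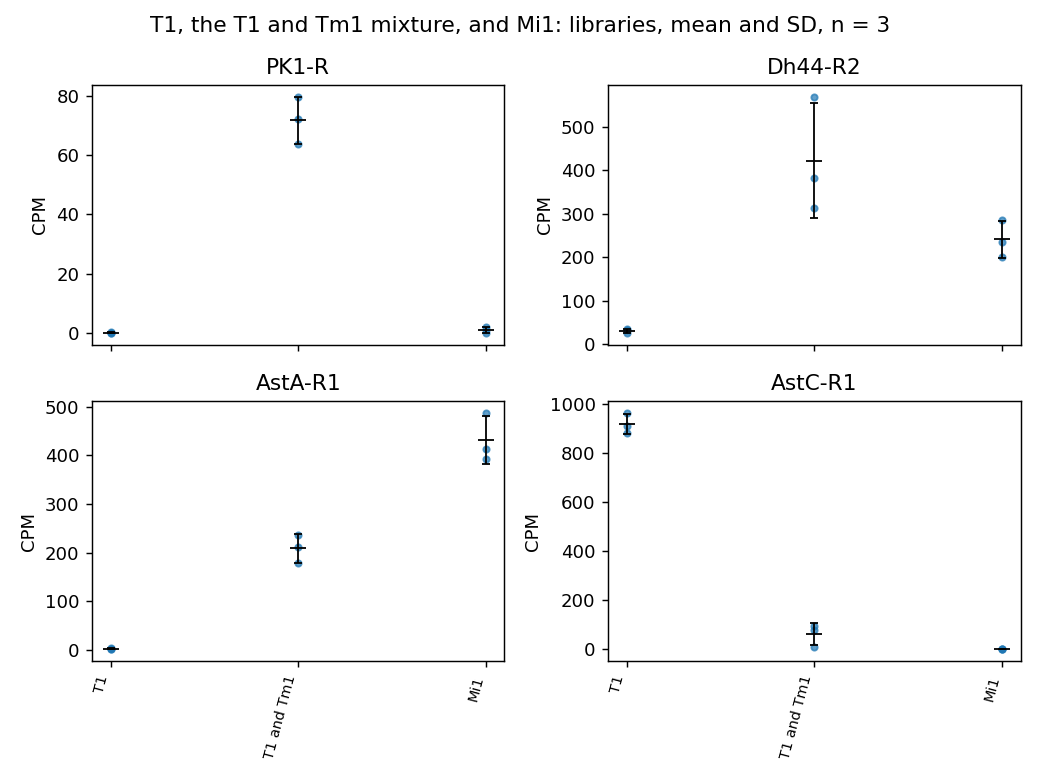
Levels in CPM (vertical axes) of PK1-R, Dh44-R2, AstA-R1 and AstC-R1 in T1, in the mixture of T1 and Tm1 cells and in Mi1 (horizontal axes), with 1 point per library and the mean and SD as bars (n = 3). PK1-R is near 0 in T1 and Mi1 and at 71.9 CPM in the mixture, and AstC-R1 is at 920.4 CPM in T1 and 62.3 in the mixture.

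The genes that act with these receptors varied less among types. Of 24 genes for G proteins and their signalling partners 23 were tested and all 23 varied (91.5 percent of all genes), with a median range of 3.01 in log2(CPM + 1) against 2.55 for all genes. Over their 391 pairs with a type 52 were higher and 29 lower (13.3 and 7.42 percent, near the 15.6 and 6.24 percent over all genes). The widest ranges were those of Ggamma30A, a G protein gamma subunit (13590 ± 2099 CPM in Tm3 and 170 ± 11.4 in T3), Plc21C, a phospholipase C (2463 ± 240 in Lawf1 and 47.1 ± 6.85 in T1), and rut, an adenylate cyclase (1589 ± 198 in Lawf2 and 72.0 ± 28.5 in Mi1). Against sorted neurons 1 of these genes passed the test, being higher in the types.

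Of 14 genes for peptide processing and breakdown 12 were matched and 10 tested, and all 10 varied (91.5 percent of all genes), with a median range of 3.54 against 2.55 for all genes. Of their 170 pairs 24 were higher and 16 lower (14.1 and 9.41 percent, beside 15.6 and 6.24 percent over all genes). The widest were Fur1, a furin protease (1543 ± 56.2 CPM in T1 and 9.05 in Tm9), Nep4, a neprilysin that degrades peptides (102 ± 5.58 in Lawf1), and 7B2, a helper of the prohormone convertase (2241 ± 67.8 in Lawf1 and 62.9 in T2). Of 10 further peptide and hormone receptor genes 9 were matched and tested and 7 varied, with a median range of 3.26. Of their 153 pairs 31 were higher and 7 lower (20.3 and 4.58 percent, beside the same shares over all genes). The widest were smog, a G protein-coupled receptor (1147 ± 116 in Lawf1 and 7.25 in T1), rk, the bursicon receptor (64.4 ± 7.90 in Tm5ab), and Lgr4 (46.2 ± 4.36 in T5). Phm, Pal1 and InR were not analysed here.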

How the data were processed

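RNA of sorted cells was sequenced in 57 libraries, 3 for each of 19 groups. The authors deposited unnormalized counts of reads for 17558 FlyBase gene identifiers. Trimmomatic 0.32, STAR 2.5.2, HTSeq 0.6.1 and build BDGP6 are named in the submitters' processing notes. Per the labels' protocols, SMART-Seq v4 gave full-length cDNA and Nextera XT the libraries. The 5 summary lines of the counting hold 56.38 to 64.51 percent of each library's total and were left out. Symbols were matched for 17251 identifiers from a gene name table, and coordinates, exon lengths and overlaps come from Ensembl release 115, whose models can differ from those counted.

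Counts were filtered with filterByExpr, scaled with TMM and fitted in edgeR 4.0.16 (R 4.3.3) with a trended dispersion and a robust quasi-likelihood model, 1 coefficient per group over the 57 libraries. P-values were adjusted by Benjamini-Hochberg over 12569 genes, and a call needs an adjusted p under 0.05 and, outside the F test, a fold change of 2 or more. An SE is the log2 fold change divided by the root of the F statistic. The code was tested on simulated data. Levels, counts and figures used Python 3.11.15, numpy 2.4.6, pandas 2.3.3 and matplotlib 3.10.9. Alternatives were DESeq2 size factors, the DESeq2 1.42.0 test, no filter, other detection levels, omission of T2, and omission of each library.

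The receptor genes and lists were chosen with earlier results of these data known. Values in every library are given for the 15 receptor genes of widest range among those reaching 20 CPM, other members by their peaks, and every member past the threshold in a comparison of 2 groups is named, as are the 3 genes of widest range of each other list.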

Additional observations from a re-analysis of the deposited data

How the results depend on the processing

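No paired analysis was possible because the library numbers only name libraries and GEO lists 1 sample per group. Of the counts recomputed with all libraries under another setting, 161 stayed within 1.5 times their value and 6 did not. The DESeq2 test gave 140 lower pairs of receptor gene and type (78 in edgeR) and 5 receptor genes lower in Lawf1 than in Lawf2 (3 in edgeR). Fewer receptor genes were counted at 5 CPM per kb in Lawf2 (4), Mi1 (7) and Tm5c (6) and at 20 CPM in Tm5c (5). With each library left out in turn, the count of receptor genes higher in the types than in sorted neurons ran from 0 to 1, that lower in Lawf1 than in Lawf2 from 3 to 6 (6 without Lawf2 library 3 or Lawf1 library 1), and that lower in the mixture than in T1 from 1 to 4. The F test called 33 to 34 of the 34 without 1 library, 32 in DESeq2 and 33 without T2. Omission of a library was refitted for its own type, with the calls of the other types kept. Of the values for receptor genes in their highest type, 232 kept direction and call and 3 did not. Lkr in T2, at a log2 fold change of 5.38, ran from -1.08 without T2 library 2, which held its only 2 reads, to 6.15 without T2 library 1, and missed the threshold in DESeq2 (adjusted p = 0.52). RYa-R in Mi1 missed it in DESeq2 (0.0774), and CapaR in Dm8, which had no adjusted p there, is not counted. The cause of the other changes was not tested. Omission of T2 was not run for results on T2. Depth limits T2 most, where no read allows up to 0.47 CPM, against at most 0.068 CPM in the other groups.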
